A study of Mus musculus with 16 samples.

Results

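RNA that was not captured by J2, an antibody to double-stranded RNA, was compared between Dicer knock-out and wild-type testis of mice at postnatal day 18 (P18). The comparison took the 3 knock-out and the 3 wild-type flow-through libraries at P18. Its members are the 5976 of 35920 genes with a normalized count of 10 or more in at least 2 of these 6 libraries. No gene passed an adjusted p of 0.05 in limma. What the 6 libraries hold is therefore described below by values, counts and medians, and no single gene is reported as changed.

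The series holds 16 libraries from whole mouse testis, a J2-bound and an unbound (flow-through) library for each sample. Both P18 groups are C57BL/6 x 129S4/SvJae. The wild-type group is labelled wild type and the knock-out group Dcr-/-, and the labels name no Cre driver, promoter or cell type for the deletion. The 2 adult flow-through libraries are wild type with the strain given as unknown, and entered the fit only to estimate the spread. The flow-through is thus RNA left after rRNA depletion and after removal of the strands that J2 binds. It was sequenced with a strand-specific low-input kit. After the rRNA depletion the mitochondrial 16S rRNA mt-Rnr2 was among the 10 features of highest mean. How complete the depletion was has not been tested. The labels do not say that replicates came from separate animals, so the spread on which p-values rest is that between libraries and may be technical.

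Dicer is the ribonuclease that cuts microRNA precursors, released from primary transcripts by Drosha and Dgcr8 and exported by Xpo5, into mature microRNAs, and that cuts long double-stranded RNA into short interfering RNAs. The products guide Argonaute proteins to target mRNAs. In the testis Dicer is needed in germ cells for normal sperm production and in Sertoli cells for their support of germ cells. At P18 the most advanced germ cells of the mouse are pachytene spermatocytes, and spermatids have not yet formed in number. The summed value of 35 spermatid markers was 139 to 230 in the 6 P18 libraries and 4654 and 5012 in the adult ones, so the libraries differ by age in the direction of their labels.

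Most of each library belonged to a few features. The 10 highest of each library held 96.5% ± 0.735 (SD, n = 3) of its signal in wild type and 97.1% ± 1.48 (SD, n = 3) in knock-out. Ranked by mean over the 6 libraries, the 10 highest features include Gm42418, AY036118, Lars2, CT010467.1 and 3 near-identical genes (Gm23935, Gm24270 and Gm24245). The others are the mitochondrial 16S rRNA mt-Rnr2 and 2 annotated microRNA loci, Mir6236 and Mir6240. Lars2 alone held 61.4% of knock-out replicate 1 and 1.33% to 16.2% of the other 5 libraries. How much of the signal counted at Lars2 and the other dominant features comes from rRNA was not tested. Outside the 20 highest features the libraries hold an estimated 31400, 83000 and 21200 reads in wild-type replicates 1 to 3, and 28000, 87700 and 70800 in knock-out replicates 1 to 3. A value of 10 stands for about 1.20 to 4.99 reads. Of the tested genes, 23.8%, 5.91% and 28.0% were listed at 0 in the wild-type libraries and 15.8%, 3.71% and 6.54% in the knock-out libraries. Genes that every cell uses were among them (the ribosomal protein gene Rpl35 was at 0 in wild-type replicates 1 and 3), so a 0 is given below only as a listed 0.

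**Figure D1:**
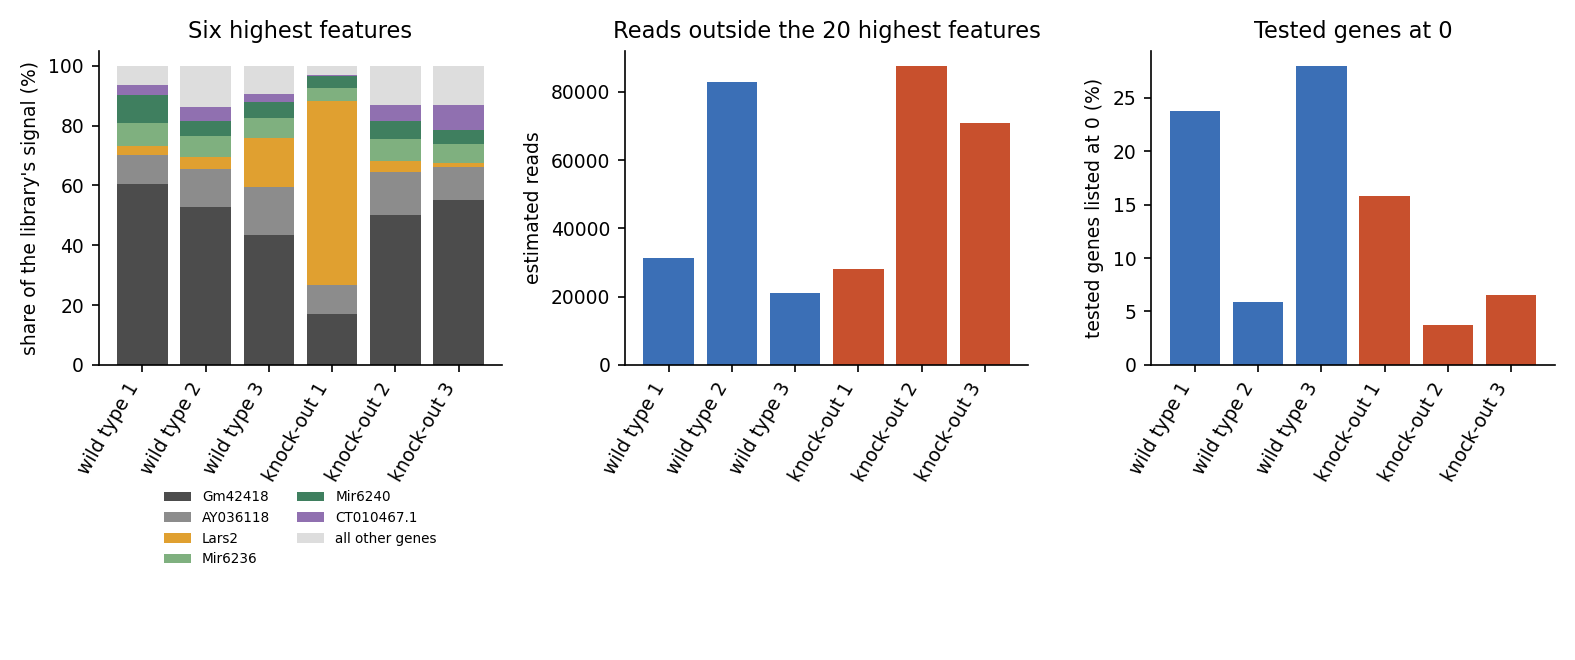
Left, share of each library's signal in percent that went to the 6 highest features and to all other genes. Middle, estimated reads outside the 20 highest features. Right, percent of the 5976 tested genes listed at 0. Each bar is 1 library, blue for wild type and red for knock-out in the middle and right panels. Lars2 fills 61.4% of knock-out replicate 1, and wild-type replicates 1 and 3 have the most tested genes at 0 (23.8% and 28.0%).

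For 9 measures of whole libraries the genotypes were set against each other by exact permutation (two-sided), and 3 against 3 cannot give a p below 0.1. The number of genes at 10 or more was 3866 ± 233 (SD, n = 3) in wild type and 4506 ± 158 (SD, n = 3) in knock-out, and did not overlap (exact permutation p = 0.1, adjusted p = 0.9). At 50 or more the difference in means was 2.33 genes. The other 8 measures, the shares of the 10 highest, of 6 single features and of the mitochondrial genes, overlapped (exact permutation p of 0.4 to 0.9, adjusted p = 0.9 for all). Across the tested genes Spearman's rho was 0.259 to 0.382 between wild-type libraries, 0.282 to 0.493 between knock-out libraries and 0.255 to 0.532 between a wild-type and a knock-out library. The 3 ranges overlapped, so the libraries did not sort by genotype on this measure.

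The annotated microRNA loci are shown first because microRNA hairpins are Dicer's substrates. The origin of the reads counted at these loci was not tested, so their values are not read as levels of Dicer substrates. Of 1180 loci in the table, 20 were above 0 in at least 1 of the 6 libraries and 5 were tested. Their mature sequences in RefSeq (GRCm38.p6) are as follows, 5′ to 3′, with the seed (bases 2 to 8) in capitals, and both arms are given for Mir7234.
mmu-miR-6236: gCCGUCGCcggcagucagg
mmu-miR-6240: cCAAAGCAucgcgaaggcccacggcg
mmu-miR-1983: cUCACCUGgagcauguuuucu
mmu-miR-7234-5p: uUGUUUUCuccaaagacguuucu
mmu-miR-7234-3p: aAACGUCUuucuaggguagaagg
mmu-miR-7241-5p: aCUUGCAUgaguuaauacccacc
The 6 seeds differ from each other. Mir6236 (mature sequence at chr9:110281353-110281371, plus strand) took 7.76%, 6.87% and 6.84% of the signal in the wild-type libraries and 4.46%, 7.54% and 6.24% in the knock-out libraries. Mir6240 (chr5:114851973-114851998, plus strand) took 9.49%, 5.0% and 5.27% in wild type and 3.75%, 5.96% and 4.87% in knock-out. For both the genotypes overlapped (exact permutation p = 0.4, adjusted p = 0.9).

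The remaining 3 tested loci stood at a few reads. Mir1983 was at 12.4, 0 and 0 in wild type and at 15.9, 2.25 and 3.26 in knock-out. Mir7241 was at 12.5, 0 and 18.8 in wild type and at 8.49, 4.60 and 0 in knock-out. Mir7234 was at 7.41, 0 and 0 in wild type and at 10.1, 5.70 and 10.3 in knock-out. Within each of the 3 loci the groups overlapped. Mature microRNAs are shorter than the fragments such a library is made from, and their levels were not analysed here.

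Across all members the limma comparison called 0 genes (0% of 5976, smallest adjusted p = 0.358). At an unadjusted p under 0.05 there were 366 genes (6.12%), of which 275 (4.60%) had higher and 91 (1.52%) lower values in knock-out. In 478 genes (8.0%) all 3 knock-out values lay above all 3 wild-type values, and in 194 (3.25%) all lay below. The median log2 difference of all tested genes was 0.37 rather than 0, and differences of single genes below are given as fitted, to be set against that value. Without wild-type replicate 2 there were 483 higher genes at that p, and without knock-out replicate 1 there were 59 lower ones. Lists are given as their median minus the median of all tested genes.

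Listed zeros were common among the genes with higher values. Of the 275 genes with higher values, 232 were at 0 in at least 1 wild-type library and 154 were at 0 in both wild-type replicates 1 and 3, the 2 wild-type libraries with the fewest reads. The filter itself was passed through the knock-out libraries alone by 596 genes and through the wild-type libraries alone by 279. Among the 2814 tested genes above 0 in all 6 libraries, 43 were higher and 43 lower at an unadjusted p under 0.05. Their median log2 difference was 0.07. That restriction drops every gene with a listed 0 in either genotype, so it is a description only. The part of the zeros in the excess was not tested. After quantile normalization over the tested genes the median of all genes was 0.02 and the split at an unadjusted p under 0.05 was 158 higher and 180 lower. After scaling to a common total over genes that are not mitochondrial the median was -0.16 and the split was 78 higher and 110 lower, but the dominant features are in that total. Without the 20 highest features in the total the median was 0.23 and the split 214 higher and 114 lower, and with median-ratio scaling they were 0.31, 242 and 97.

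The precision of 1 gene was low. The median standard error of the log2 difference was 1.23 over all tested genes. It was 0.57 for the 163 genes with a mean of 100 or more, whose 95% interval reached a median of 1.21 to either side. Differences of less than about that size could not be resolved even for well-covered genes.

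**Figure D2:**
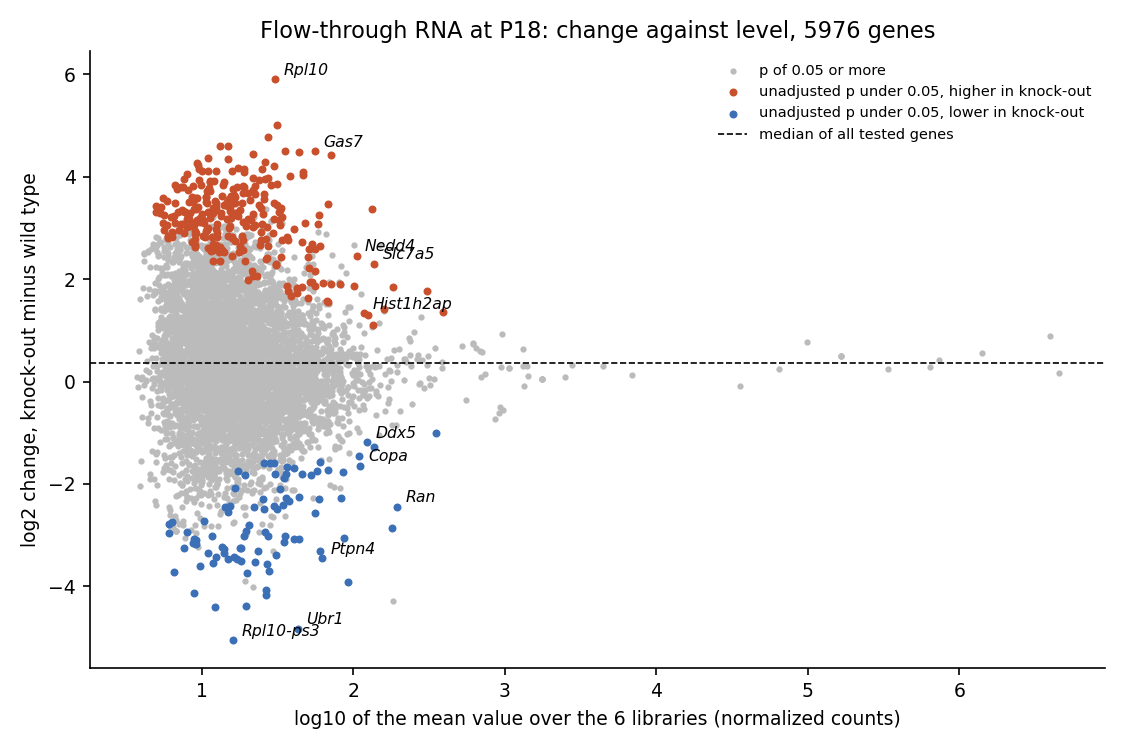
Log2 change (knock-out minus wild type, limma on log2(value + 1)) against log10 of the mean value over the 6 libraries for the 5976 tested genes. Red and blue points have an unadjusted p under 0.05 (275 higher, 91 lower), and the dashed line is the median of all genes, 0.37. No point passes an adjusted p of 0.05, and most genes are low, with 3645 under a mean of 20. The coloured share is 5.76% among those and 7.71% at a mean of 50 to 100.

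The 10 genes with the smallest p among those higher in every knock-out library were Gas7, Rpl10, Nedd4, Lrrc8c, Arih2, Akap9, Atp6v1a, Zfp106, G6pdx and Tex16. Gas7 (chr11:67453257-67688992), which encodes a membrane-binding regulator of the actin cytoskeleton, had values of 1.76, 2.37 and 7.98 in wild type and of 166, 52.6 and 106 in knock-out. The lowest knock-out value was several times the highest wild-type value. The log2 difference was 4.49 (SE 0.82, n = 3 per group), and limma's adjusted p was 0.358. Nedd4 (chr9:72662331-72749851), a ubiquitin ligase, stood at 21.6, 66.8 and 16.6 in wild type and at 114, 144 and 268 in knock-out. It was above 0 in all libraries and its log2 difference was 2.46 (SE 0.62, limma adjusted p = 0.780).

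For most of the others at least 1 wild-type library was at 0. Lrrc8c, a subunit of the volume-regulated anion channel, was at 0, 2.67 and 0 in wild type and at 122, 39.7 and 23.7 in knock-out. Atp6v1a, a catalytic subunit of the vacuolar proton pump, was at 0, 19.5 and 2.79 against 161, 31.8 and 63.1. Akap9, a scaffold protein of the centrosome and Golgi, was at 0, 0.297 and 0 against 10.9, 29.9 and 48.9. In each of these the groups were separate and at least 2 wild-type libraries were at or near 0. The remaining autosomal genes of the 10 were Arih2, a ubiquitin ligase (3.76, 3.92 and 0 against 64.2, 37.9 and 25.2), and Zfp106, an RNA-binding zinc finger protein (0, 2.76 and 7.15 against 162, 38.6 and 51.4).

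Rpl10, a ribosomal protein gene on the X chromosome (chrX:74270816-74273135), was listed at 0 in all wild-type libraries and at 81.6, 51.2 and 49.5 in knock-out. Its processed copy Rpl10-ps3 (chr9:50344226-50344984) was the mirror image, at 26.6, 33.7 and 36.5 in wild type and at 0 in all knock-out libraries. The sum of the pair was 26.6 to 36.5 in wild type and 49.5 to 81.6 in knock-out. Reads that fit both copies can be assigned to either one, so the value of each alone is uncertain. In the J2-bound libraries of the same groups Rpl10 was above 0 throughout, at 29.0 to 51.7 in wild type and 21.2 to 102 in knock-out.

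Among the genes lower in every knock-out library the smallest p belonged to Ubr1, Rpl10-ps3, Ptpn4, Ran, Gm28635, March7, Arfgef2, Brca2, Mkln1 and Zfp157. Ubr1 (chr2:120860272-120970760), a ubiquitin ligase that recognises N-terminal residues, had values of 38.0, 51.6 and 165 in wild type and of 2.70, 3.03 and 0 in knock-out. The knock-out values were near the level of 1 read. Its log2 difference was -4.83 (SE 1.06, limma adjusted p = 0.563). Ran (chr5:129020156-129024322), the GTPase that drives nuclear transport and the export of microRNA precursors, stood at 99.9, 298 and 620 in wild type and at 26.6, 74.0 and 55.3 in knock-out. Its log2 difference was -2.44 (SE 0.67, limma adjusted p = 0.780), and wild-type replicate 1 was the closest to the knock-out values.

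Ptpn4, a tyrosine phosphatase, was at 24.2, 133 and 195 in wild type and at 4.54, 6.19 and 11.6 in knock-out. Brca2, which loads the recombinase at DNA breaks, was at 107, 77.9 and 148 against 8.42, 11.6 and 9.88. Arfgef2, an exchange factor for vesicle-transport GTPases, was at 63.4, 83.5 and 75.6 against 6.21, 1.87 and 32.3. All 3 were above 0 in every library and had a limma adjusted p of 0.780. Mkln1, March7 and Zfp157 were each at 0 in 1 or more knock-out libraries, and Gm28635 in all of them (46.5, 15.8 and 10.8 in wild type).

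**Figure D3:**
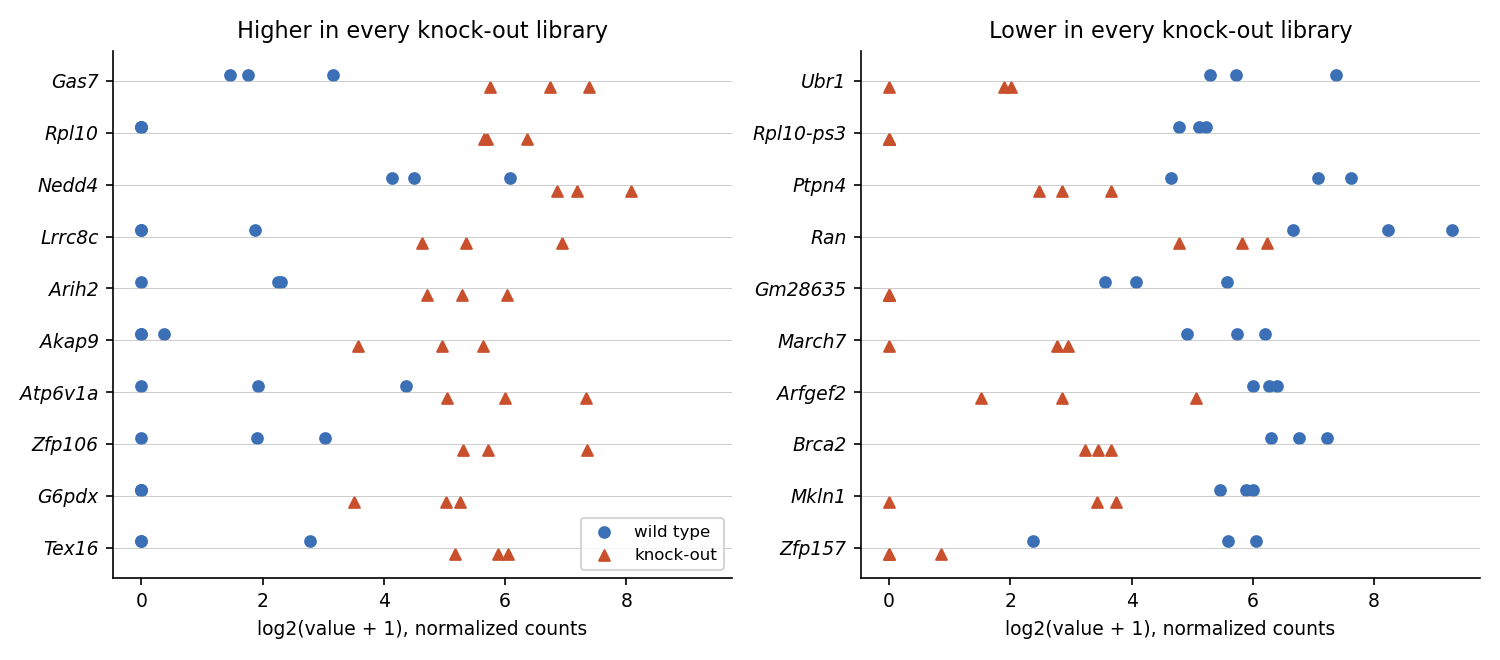
Log2(value + 1) of the 10 genes with the smallest p that were higher in every knock-out library (left) and the 10 that were lower (right). Blue circles are the 3 wild-type and red triangles the 3 knock-out libraries, each point 1 library. The groups are apart in each row because the rows were chosen for it, and several rows have 1 or more libraries at 0.

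Among the 163 genes with a mean of 100 or more, the 5 with the largest higher values that did not overlap were Nedd4, Slc7a5, Qrich1, Tuba1b and Hist1h2ap, with log2 differences of 1.34 to 2.46. Slc7a5, a transporter of large neutral amino acids, had 35.5, 19.6 and 78.8 in wild type and 375, 78.8 and 239 in knock-out, and its groups met at 78.8. Tuba1b, an alpha tubulin, had 142, 125 and 27.7 against 312, 179 and 173. The 5 lower ones were Ran, Copa, Trip12, Trim37 and Ddx5, with log2 differences of -1.19 to -2.44. Copa, a coatomer subunit of Golgi vesicles, had 195, 73.7 and 244 in wild type and 31.7, 61.5 and 56.9 in knock-out. Trim37, a ubiquitin ligase, had 94.9, 136 and 382 against 66.2, 57.9 and 88.8. For all of these limma's adjusted p was 0.780. Tuba1b, Ran and Hist1h2ap have near-identical copies elsewhere in the genome, which makes their own values less certain.

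Dicer1 itself could not serve as a check of the labels. It was at 5.10, 12.4 and 0 in wild type and at 0, 3.68 and 8.33 in knock-out, and did not reach the filter. These are values of a few reads, and a gene-level value does not show whether a deleted exon is missing.

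The small RNA machinery, 14 of whose 20 listed genes were tested, had a median 0.77 below that of all genes, with 4 of 14 above the all-gene median. At an unadjusted p under 0.05 it had 1 higher and 2 lower members, beside 4.60% and 1.52% of all genes, and none was called. Ddx5, a helicase of the Drosha complex, was at 143, 141 and 226 in wild type and at 41.1, 107 and 84.8 in knock-out. All knock-out values of Ddx5 were below the wild-type ones, as were those of Ran above. Its relative Ddx17 went the other way without overlap (25.9, 33.0 and 32.9 against 41.2, 50.3 and 40.4), as did Tnrc6c, a scaffold of the silencing complex (8.19, 8.29 and 9.87 against 43.4, 25.1 and 91.6). Without wild-type replicate 2 the list stood only 0.14 below all genes, and over its members above 0 in all 6 libraries 0.042 below.

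The core factors that make and use microRNAs overlapped between the genotypes. Drosha, which cuts primary transcripts, was at 20.04, 13.7 and 53.4 in wild type and at 5.97, 18.0 and 12.3 in knock-out. Tarbp2, a partner protein of Dicer, was at 15.3, 15.997 and 18.95 in wild type and at 0, 19.7 and 6.48 in knock-out. Ago2, the slicing Argonaute, was at 56.9, 17.2 and 7.81 against 41.1, 15.3 and 26.2. When each library was left out in turn, the log2 difference was -1.49 to -0.55 for Drosha and -2.69 to -0.51 for Tarbp2. For Ago2 it was -0.29 to 1.07. Dgcr8, the RNA-binding partner of Drosha, owed its wild-type mean to replicate 2 (249, against 4.75 and 0). Xpo5, the exporter, was at 11.4, 27.5 and 6.57 against 11.3, 15.4 and 7.59, and Prkra, a further Dicer partner, at 6.14, 4.10 and 14.4 against 20.1, 12.7 and 9.91. Ago1 was at 0, 29.7 and 0 in wild type and at 1.84, 19.7 and 4.84 in knock-out, and Ago3 and Ago4 did not reach the filter.

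Genes that bind or edit double-stranded RNA had 8 of 14 listed members tested, with a median 0.83 below all genes and 1 of 8 above the all-gene median. None of the 8 had groups without overlap, beside 8.0% higher and 3.25% lower over all genes. Dhx9, a helicase of double-stranded RNA, was at 55.4, 45.3 and 42.0 in wild type and at 10.01, 50.5 and 29.9 in knock-out. Strbp, a testis protein that binds such RNA, was at 40.7, 62.3 and 37.7 against 15.4, 6.38 and 87.5. Of 30 genes that sense double-stranded RNA or respond to interferon, 2 were tested. The interferon receptor gene Ifnar1 was at 0, 2.58 and 0 in wild type and at 0, 11.0 and 21.4 in knock-out, and overlapped. The depth does not allow a statement on the other 28 listed genes.

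Genes switched on in pachytene spermatocytes had lower values than most genes in knock-out by their median, with none called. Of 28 listed, 23 were tested, their median was 0.93 below all genes, and 3 of 23 lay above the all-gene median. Groups did not overlap in 5 lower members (Adam2, Adam3, Tcte3, Tekt1 and Cetn1) and 1 higher one (Dnajb3), beside 3.25% lower and 8.0% higher over all genes. Adam2, a sperm surface protein needed for egg binding, had 118, 97.1 and 61.3 in wild type and 28.8, 54.6 and 54.8 in knock-out. Adam3, a related sperm surface protein, had 30.3, 54.0 and 34.5 against 0.97, 19.95 and 11.6. Tekt1, a filament protein of sperm tails, had 19.5, 37.6 and 22.8 against 5.27, 14.9 and 15.8. In all 3 the highest knock-out value was below the lowest wild-type value, and knock-out replicate 1 was the lowest library.

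The most abundant genes of that list overlapped. Hist1h1t, the testis linker histone, was at 831, 480 and 530 in wild type and at 700, 451 and 316 in knock-out (log2 difference -0.36, 95% interval -1.27 to 0.55). Ldhc, the lactate dehydrogenase of germ cells, was at 143, 190 and 127 against 157, 134 and 99.4 (-0.24, interval -1.24 to 0.76). Hist1h2ba, a testis histone H2B, was at 10274, 3697 and 6455 against 9029, 6095 and 5880. The list's median was 0.57 (without wild-type replicate 3) to 1.10 below all genes when each library was left out in turn, and 0.50 below over members above 0 in all 6 libraries.

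The 23 tested genes of meiotic prophase had a median 0.05 below all genes, with 11 of 23 above. Groups did not overlap in 1 higher (Tex11) and 1 lower member, beside 8.0% higher and 3.25% lower over all genes. The lower one was Hspa2, a testis chaperone of meiosis, at 199.8, 208 and 172 in wild type and 129, 168 and 135 in knock-out. Its log2 difference was -0.43 (95% interval -1.29 to 0.44), which is 0.80 below the median of all genes. Sycp1, a protein of the synaptonemal complex, was at 0, 131 and 117 in wild type and at 62.2, 137 and 453 in knock-out, and Stag3, a meiotic cohesin, at 72.7, 105 and 99.4 against 149, 135 and 94.6. Spo11, which makes the meiotic DNA breaks, was at 4.20, 38.5 and 106 against 0, 13.2 and 17.6. These 3 overlapped. The 19 tested genes of the piRNA pathway, whose small RNAs are made without Dicer, had a median 0.17 above all genes with 12 of 19 above. In none of the 19 were the groups separate, beside the same 8.0% and 3.25% over all genes. Piwil1, a germ-line Argonaute of the Piwi family, was at 68.2, 72.1 and 51.9 in wild type and at 25.9, 103 and 50.2 in knock-out, and Mael, a factor of the same pathway, at 94.2, 151 and 96.0 against 74.2, 168 and 172. Of the spermatogonial markers 6 were tested, with a median 0.33 above all genes.

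Of 30 Sertoli cell markers 21 were tested and none was called. Their median was 0.50 above all genes and 15 of 21 lay above the all-gene median. The groups did not overlap in 7 higher members and 0 lower ones, beside 8.0% and 3.25% over all genes. Of the 7, 3 had passed the filter through the knock-out libraries alone, and 4 were above 0 in all 6 libraries. Over all tested genes these counts were 251 and 189 of 478. Clu, a secreted chaperone abundant in Sertoli cells, had 167, 135 and 144 in wild type and 232, 197 and 186 in knock-out. Ctsl, a lysosomal protease, had 83.0, 57.0 and 67.3 against 97.9, 108 and 90.8. These differences were small, with log2 values of 0.46 (SE 0.51) and 0.53 (SE 0.53), which are 0.09 and 0.16 above the median of all genes. Aard and Espn, a bundler of actin at Sertoli cell junctions, were likewise separate and above 0 in all libraries.

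The other 3 were at 0 in wild-type replicates 1 and 3. Gata4, a transcription factor of somatic testis cells, had 0, 2.26 and 0 in wild type and 27.8, 16.97 and 20.9 in knock-out. Wt1, a transcription factor that maintains Sertoli cells, had 0, 1.22 and 0 against 19.01, 18.66 and 18.97. Cldn11, which seals the junctions between Sertoli cells, had 0, 3.04 and 0 against 16.5, 24.4 and 9.08. Inha and Nr5a1, other Sertoli genes, did not follow: Inha was at 23.6, 12.1 and 41.5 in wild type and 13.2, 22.5 and 0 in knock-out. The summed value of the whole list was 486, 401 and 520 in wild type and 787, 637 and 600 in knock-out, and did not overlap. Without wild-type replicate 2 the median of the list equalled that of all genes (0.0018 above), and it was 0.31 above without knock-out replicate 1 and 0.25 above without knock-out replicate 2. In whole testis, more cells of a type and more RNA per cell cannot be told apart, in this list or any other.

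Other somatic lists went in different directions. Of 17 stromal matrix genes 16 were tested, with a median 0.67 above all genes and 11 of 16 above. The fibroblast receptor Pdgfra was at 139, 24.2 and 0 in wild type and at 438, 122 and 69.5 in knock-out, and the collagen gene Col1a2 at 146, 30.5 and 53.7 against 483, 76.3 and 307. The list's sum was 1700, 431 and 1156 in wild type and 2457, 926 and 2377 in knock-out, and overlapped. Wild-type replicate 2 was lowest, and without it the median was 0.05 above all genes. The 7 tested Leydig cell genes had a median 0.78 below all genes with 0 of 7 above. Cyp11a1, which starts steroid synthesis, was at 21.7, 34.4 and 68.8 against 27.5, 28.0 and 10.6, and Cyp17a1, a later enzyme of androgen synthesis, at 27.7, 21.6 and 36.9 against 26.6, 29.0 and 15.7. No Leydig gene had separate groups, beside 8.0% higher and 3.25% lower over all genes. Macrophage, endothelial and red cell markers had 4, 1 and 3 tested members, and 0 of 12 epididymis markers were tested.

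**Figure D4:**
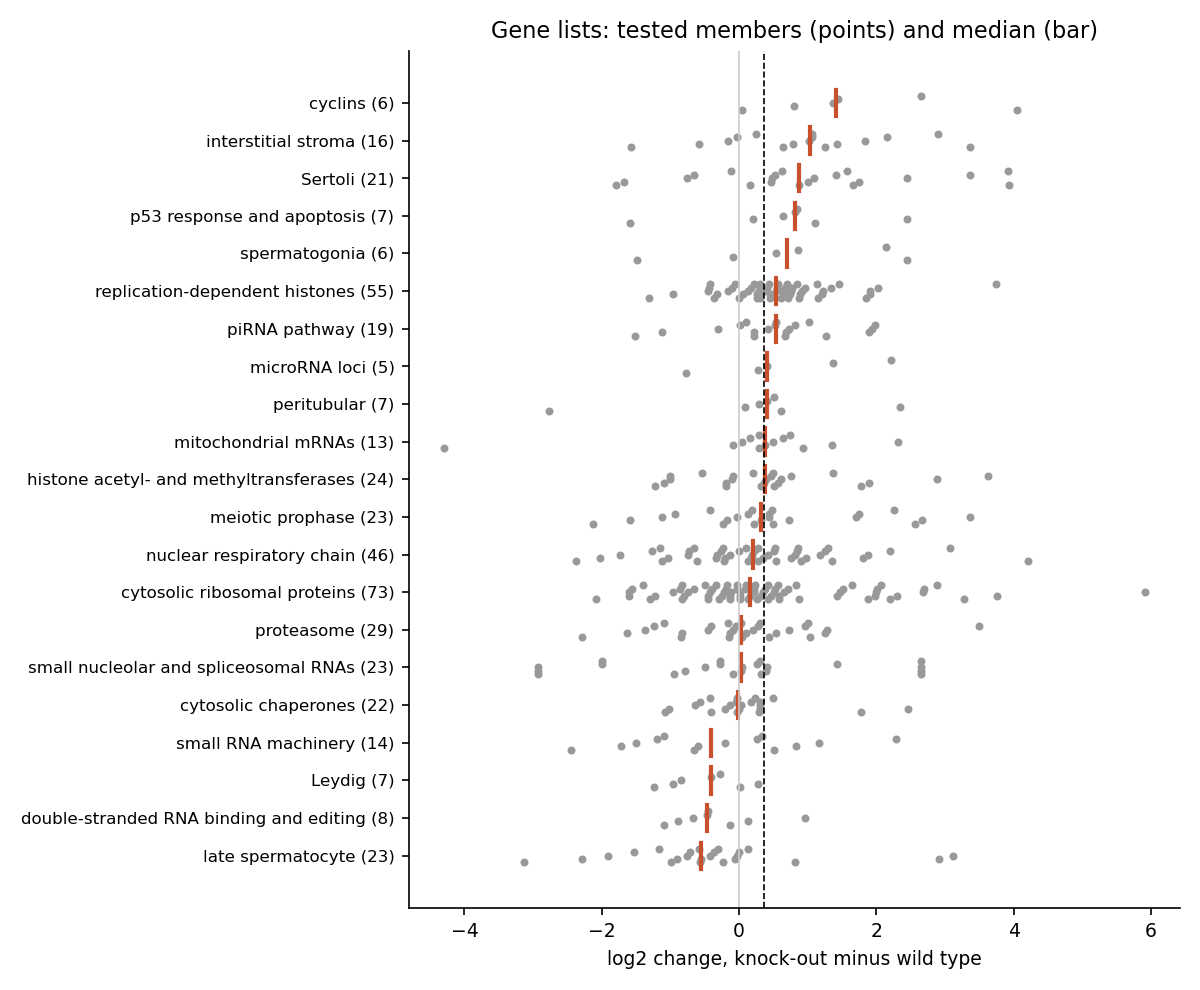
Log2 change (knock-out minus wild type) of the tested members (grey points) of the 21 gene lists with 5 or more of them, and each list's median (red bar), ordered by median, with the number of tested members in parentheses. The dashed line is the median of all 5976 genes, 0.37. As plotted, late spermatocyte genes have the lowest median (0.93 below the line) and cyclins, with 6 members, the highest (1.04 above).

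X-linked genes, a group chosen after their values had been seen and given without a test, had higher values in knock-out than autosomal ones. The median log2 difference was 1.18 over 136 X-linked and 0.35 over 5617 autosomal genes. Above the all-gene median lay 69.1% of the X-linked and 49.4% of the autosomal genes. The groups did not overlap in 22 higher (16.2%) and 2 lower (1.47%) X-linked genes, and in 7.69% and 3.33% of the autosomal ones. Of the 22, 14 had passed the filter through the knock-out libraries alone, beside 251 of 478 over all tested genes. Among genes above 0 in all 6 libraries 6 of 49 X-linked genes (12.2%) were higher without overlap, and 6.33% of the autosomal ones. The sum of the X-linked genes was 2532, 1461 and 2994 in wild type and 3411, 2527 and 3148 in knock-out, against 1306 and 1036 in the adult libraries. The sums overlapped between the genotypes, since wild-type replicate 3 lay above knock-out replicate 2.

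Maged1 (chrX:94535474-94542025), an adaptor protein of apoptosis and the cell cycle, was at 122, 59.2 and 47.5 in wild type and at 200, 152 and 169 in knock-out (log2 difference 1.29, 95% interval 0.19 to 2.39, limma adjusted p = 0.780). Rbbp7 (chrX:162760372-162779090), a histone-binding subunit of chromatin complexes, was at 31.1, 12.7 and 16.5 against 65.3, 55.5 and 74.7 (1.73, interval 0.24 to 3.22, same adjusted p). Both were above 0 throughout. Tex11, an X-linked gene of meiotic recombination, was at 0, 4.01 and 0 against 12.6, 21.1 and 17.2. G6pdx, an enzyme of the pentose phosphate pathway, was at 0 in all wild-type libraries and at 31.4, 10.3 and 37.3 in knock-out, and Tex16 was at 0, 5.87 and 0 against 57.9, 35.2 and 65.6. The most abundant X-linked gene, the actin crosslinker Flna, overlapped (276, 28.2 and 130 against 147, 84.1 and 112).

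X-linked genes had a lower median level than autosomal ones (12.3 against 15.8). At 0 in both wild-type replicates 1 and 3 were 8 of the 22, beside 142 of 478 over all tested genes. Over genes above 0 in all 6 libraries the medians were 0.29 for 49 X-linked and 0.05 for 2638 autosomal genes, a gap of 0.24 beside 0.82 for all tested genes. That restriction drops genes at 0 in wild type, among them many with higher values, so the smaller gap is a description only. Over genes with a mean of 20 or more, a limit that does not use the zeros directly, the gap was 0.34. The part of the zeros in the result was not tested.

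**Figure D5:**
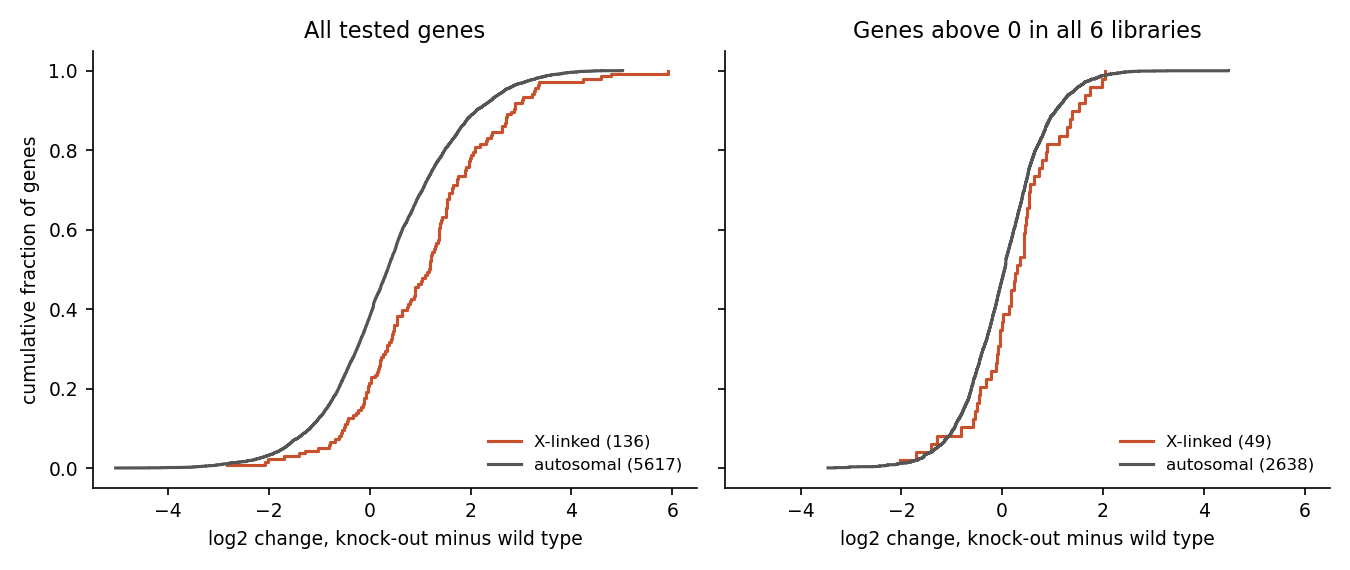
Cumulative fraction of genes against log2 change (knock-out minus wild type) for X-linked (red) and autosomal (grey) genes, over all tested genes (left, 136 and 5617 genes) and over genes above 0 in all 6 libraries (right, 49 and 2638). The X-linked curve lies to the right, by 0.82 at the median on the left and by 0.24 on the right.

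Whether the genotype difference in flow-through departed from that in the J2-bound RNA was tested as an interaction over 8207 genes with a value of 10 or more in at least 2 of the 12 P18 libraries. Limma called 0 genes (0% of 8207, smallest adjusted p = 0.977), and 405 (4.93%) had an unadjusted p under 0.05. Side by side, the late spermatocyte list was 0.93 below all genes in flow-through and 1.06 below in J2-bound RNA, where 4 of 23 tested members lay above the all-gene median. The Sertoli list was 0.50 above in flow-through and 0.28 above in J2-bound RNA. Cyclins were 1.04 above in flow-through and 0.34 below in J2-bound RNA, and stromal matrix genes 0.67 above and 0.15 below. Leydig cell genes were 0.78 below in flow-through and 0.23 below in J2-bound RNA. The small RNA machinery was 0.77 below in flow-through and 1.10 above in J2-bound RNA, over 14 and 11 tested genes, and the X-linked genes were 0.81 and 0.24 above all genes. Each J2-bound library shares a code with 1 flow-through library, so the fractions are not independent samples. A different direction in the 2 fractions was not tested list by list.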

How the data were processed

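The authors deposited 1 table of normalized counts, a signal with 1 value per Ensembl gene (35920) and library (16). Per the submitters' processing notes FastQC, Trimmomatic, Salmon, DESeq2 and mm10 were used, with versions and settings not given in the sources used here. Symbols matched 35446 identifiers, and positions come from RefSeq (GRCm38.p6). Whole reads could not be recovered from the flow-through values (at most 0.919% were whole multiples), so no count test was run, and reads per library are estimates from the smallest value shared by at least 10 genes.

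Values were fitted as log2(value + 1) over the 8 flow-through libraries. The fit used limma 3.58.1 (R 4.3.3, mean trend, two-sided, Benjamini-Hochberg over all tested genes, threshold 0.05). For low genes and listed zeros the size of a difference depends on the number added. The median log2 difference of all tested genes was 0.37 with 1 added, 0.15 with 10 and 0.42 with 0.5. The filter was 10 in at least 2 of the 6 libraries. The interaction used 16 libraries. The fit was also run on simulated libraries of equal depth, with large changes placed only in genes of higher mean. Those settings differ from the depth and zeros of these libraries, so the run does not show how the fit performs here. The members and the 31 gene lists were chosen with earlier results of these data known. Named are the 10 genes of smallest p per direction with separate groups, the 5 of largest change per direction with a mean of 100 or more, up to 4 highest members per list, the core microRNA factors and the 10 highest features. Further list members were named after their values were seen. Alternatives covered libraries fitted, pseudocount, filter, scaling and each library left out. Predicted microRNA targets were not analysed here. The values of 1 listed gene are not reported here.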

Additional observations from a re-analysis of the deposited data

How the results depend on the processing

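No gene was called under any of the 18 alternatives to the comparison of genotypes (smallest adjusted p 0.0703 with all 16 libraries fitted) or the 16 alternatives to the interaction, among them the shared code as a replicate block, which called 0 genes. Between genotypes no paired analysis was possible because the labels number no replicates. The genes at an unadjusted p under 0.05 were 540 higher and 155 lower with no filter, 26 and 20 with a filter at 50, 78 higher with a common total and 158 and 180 with quantile normalization. Leaving out 1 library gave 191 to 483 higher (483 without wild-type replicate 2) and 59 to 114 lower (59 without knock-out replicate 1). Relative medians moved with a pseudocount of 10 for small RNA machinery (-0.22), double-stranded RNA binding (-0.53), late spermatocyte (-0.62), Sertoli (0.29), chaperones (-0.16) and X minus autosomes (0.27). With no filter they moved for double-stranded RNA binding (-0.54), Sertoli (0.16) and X (0.27), and with a filter at 50 for late spermatocyte (-0.51), chaperones (-0.17) and X (0.41). Quantile normalization moved double-stranded RNA binding (-0.54), chaperones (-0.016) and X (0.61). Over genes above 0 in all 6 libraries, chosen after seeing the data and dropping genes at 0 in any of them, small RNA machinery was at -0.042, double-stranded RNA binding at -0.53, late spermatocyte at -0.50, chaperones at -0.083 and X at 0.24, and X was at 0.34 for means of 20 or more. Leaving out 1 library gave -0.92 to -0.14 for small RNA machinery, -1.10 to -0.57 for late spermatocyte, 0.0018 to 0.54 for Sertoli, 0.62 to 2.2 for cyclins, -0.38 to 0.23 for ribosomal proteins, -0.39 to -0.19 for chaperones and 0.57 to 0.77 for X. It gave differences of -0.26 to 1.11 points for the share of the 10 highest features, -18.6 to 0.36 for Gm42418, -2.78 to 0.55 for AY036118, -5.26 to 24.8 for Lars2, -0.76 to 3.08 for CT010467.1 and -0.37 to 1.17 for mitochondrial genes. The cause was not tested. Low depth outside the dominant features limits every gene-level value.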

Other observations

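Subunits of the cytosolic chaperonin, which folds actin and tubulin and is plentiful in spermatogenic cells, included 3 with separate groups. In the list of 22 tested chaperones groups did not overlap in 4 lower members (Hspa2 the fourth) and 0 higher ones, beside 3.25% and 8.0% over all genes. Tcp1 was at 463, 567 and 374 in wild type and at 139, 307 and 277 in knock-out (log2 difference -1.01, 95% interval -1.97 to -0.06, limma adjusted p = 0.780). Cct4 was at 83.9, 96.9 and 143 against 66.5, 37.0 and 49.3, and Cct8 at 53.1, 54.3 and 74.0 against 50.4, 28.2 and 38.3. Cct2, Cct3, Cct5 and Cct7 overlapped, with log2 differences of -0.13 to 0.03. The whole list had a median 0.38 below all genes, and 0.19 below without wild-type replicate 3. The heat shock gene Hsp90aa1 went the other way with overlap (44.7, 379 and 97.5 against 652, 414 and 250).

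Replication-dependent histone genes, transcribed in S phase, had 8 members higher in every knock-out library and 0 lower among 55 tested, beside 8.0% and 3.25% over all genes. Hist1h2ah was at 36.4, 20.2 and 33.5 in wild type and at 118, 114 and 105 in knock-out, and Hist1h2ap at 84.6, 56.3 and 58.0 against 225, 153 and 132. The median of the list was 0.17 above all genes, and 0.34 below without knock-out replicate 1. Copies of these genes are near-identical and their single values are uncertain. Of 6 tested cyclins 3 were higher without overlap (Ccna2, Ccnb2 and Ccnd2). Cyclin A2 (Ccna2), which acts in S phase, was listed at 0 in all wild-type libraries and at 14.5, 11.95 and 21.9 in knock-out, and Ccnb2, a cyclin of cell division, was at 13.5, 11.3 and 7.94 against 17.2, 18.4 and 22.5. Ccna2 had passed the filter through the knock-out libraries alone. Ccnb1 (0, 16.1 and 35.4 against 7.49, 12.2 and 5.11), Ccne2 (0, 49.9 and 8.04 against 20.3, 21.5 and 15.8) and Ccnb3 overlapped.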
